A study of Rattus norvegicus with 35 samples.

Results

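The 11 normal mammary glands of a rat tumour series were divided by the skeletal muscle RNA that they held. The glands were chosen by the measured signal of Acta1, which encodes the actin of skeletal muscle thin filaments. A gland was placed with muscle where the deposited Acta1 signal was 500 or more, and without muscle where it was lower. This gave 7 glands with muscle (NewN2, NewN3, NewN4, NewN5, NewN7, NewN8 and Young) and 4 without (NewN1, NewN6, X27.1N and X28.1N), 11 of the 35 samples in the series. The gland just above the threshold, NewN5, had an Acta1 signal of 787, and the gland just below it, NewN1, had 169.

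The series compared total RNA of normal rat mammary glands with that of 24 mammary tumours on oligonucleotide arrays, on which a group of short probes (a probe set) reads a gene. The labels tie the series to NMU (N-methyl-N-nitrosourea), a carcinogen that induces mammary tumours in rats. They give no strain, treatment or pooling for the glands, and no age unless the title Young, carried by 1 of the 7 glands with muscle, stands for one, which they do not say. Both groups are thus known only as normal gland and by title. Whether each gland is from a different animal is not stated, so p-values measure only the spread between these samples, which may be partly technical. The labels do not mention muscle.

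Skeletal muscle fibres contract when thin filaments of actin slide along thick filaments of myosin inside repeated units called sarcomeres. Calcium released from the sarcoplasmic reticulum binds troponin on the thin filament and starts contraction, and a calcium pump ends it. Fast and slow fibres use different genes for most of these parts, and creatine kinase keeps ATP available in both. In the rat, mammary tissue lies as a fat pad under the skin, next to the muscle of the body wall and skin.

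Across 10123 genes, 6 passed an adjusted p under 0.05 (limma, Benjamini-Hochberg over all 15118 probe sets tested), which is 0.0593% of the genes, and all 6 were higher in the glands with muscle. They were Acta1, Myl1, Myl11, Tnnc2, Atp2a1 and Ckm, and all stand in the muscle gene lists. Because Acta1 chose the groups, and the others read the same tissue, nothing is read from their passing. By limma 0 genes (0.0%) were called lower, and at an unadjusted p under 0.05 there were 753 genes (7.44%), 476 higher (4.7%) and 277 lower (2.74%). Of the 10003 genes in no muscle list, 0 were called by limma, with 442 higher and 277 lower at an unadjusted p under 0.05. The count of 6 rests on single glands of the smaller group. Without X28.1N 0 genes were called, without NewN6 or X27.1N 2, and without NewN1 22, of which 16 stand in no muscle list.

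The sequences upstream of these 6 genes are shown because the genes moved together from gland to gland. Each run holds the 250 bases before the annotated start, 5′ to 3′ on the gene's strand, from RefSeq on build GRCr8. Capitals mark the matches found on either strand to the E-box (CANNTG), the TATA box (TATAAA), the CArG box and the MEF2 site, which are known as binding sequences of MyoD-type factors, TATA-binding protein, serum response factor and MEF2. The runs lie at chr19:68784195-68784444 (minus strand) for Acta1, chr9:75907697-75907946 (minus) for Myl1, chr1:191260039-191260288 (plus) for Myl11, chr3:173935340-173935589 (minus) for Tnnc2, chr1:190475411-190475660 (minus) for Atp2a1 and chr1:88189211-88189460 (plus) for Ckm.
Acta1: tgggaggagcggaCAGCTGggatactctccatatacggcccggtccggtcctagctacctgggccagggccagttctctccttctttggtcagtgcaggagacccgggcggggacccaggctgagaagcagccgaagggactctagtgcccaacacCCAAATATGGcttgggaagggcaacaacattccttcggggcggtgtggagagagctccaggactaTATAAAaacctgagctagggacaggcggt
Myl1: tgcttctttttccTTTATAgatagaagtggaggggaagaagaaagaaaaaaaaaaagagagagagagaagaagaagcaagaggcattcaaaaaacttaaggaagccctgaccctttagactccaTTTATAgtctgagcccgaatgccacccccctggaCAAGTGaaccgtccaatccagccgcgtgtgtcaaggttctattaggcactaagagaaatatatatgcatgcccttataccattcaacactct
Myl11: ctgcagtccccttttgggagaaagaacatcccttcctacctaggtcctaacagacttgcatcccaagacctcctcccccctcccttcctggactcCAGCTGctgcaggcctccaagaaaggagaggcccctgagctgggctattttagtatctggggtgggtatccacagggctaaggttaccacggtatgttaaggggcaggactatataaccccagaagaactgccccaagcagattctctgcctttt
Tnnc2: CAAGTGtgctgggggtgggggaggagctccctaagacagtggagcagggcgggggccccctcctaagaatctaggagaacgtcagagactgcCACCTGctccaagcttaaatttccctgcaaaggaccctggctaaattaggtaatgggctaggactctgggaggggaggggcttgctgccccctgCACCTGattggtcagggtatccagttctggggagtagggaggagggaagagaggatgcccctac
Atp2a1: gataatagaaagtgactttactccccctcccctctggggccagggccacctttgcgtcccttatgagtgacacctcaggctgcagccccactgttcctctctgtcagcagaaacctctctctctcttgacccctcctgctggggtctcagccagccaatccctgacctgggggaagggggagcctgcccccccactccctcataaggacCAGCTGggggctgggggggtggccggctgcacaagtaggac
Ckm: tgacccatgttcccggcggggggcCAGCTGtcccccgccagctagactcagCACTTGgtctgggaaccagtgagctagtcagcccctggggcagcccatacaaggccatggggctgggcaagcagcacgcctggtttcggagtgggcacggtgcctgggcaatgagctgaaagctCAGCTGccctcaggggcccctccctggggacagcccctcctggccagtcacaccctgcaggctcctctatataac
All 6 runs held an E-box, with 3 matches each in Ckm and Tnnc2 and 1 in each of the others. Acta1 also held a CArG box 94 bases and a TATA box 29 bases before its start. Myl1 held 2 TATA matches, 237 and 126 bases before its start, both on the opposite strand. No MEF2 site was found in these windows. Of all 33469 promoters of this length in the RefSeq table, 65.5% held an E-box, 12.9% the TATA letters, 1.497% a CArG box and 2.96% a MEF2 site. Over the 8398 promoters found for the genes tested, 1 per gene, these were 57.6%, 8.16%, 1.31% and 1.48%. Among the 96 promoters found for the 120 tested muscle genes the shares were 77.1%, 20.8%, 7.29% and 18.8%. These matches are letters in a window, not sites shown to be used.

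Acta1 ranged over the 7 glands with muscle from 787 to 4427, with a median of 1541. It was 169 in NewN1, 47.5 in NewN6, 93.7 in X27.1N and 32.2 in X28.1N. Signals under 41.6, the floor set at the 10th percentile of all values, have no order among themselves and count as the floor. The groups cannot overlap for Acta1, since it chose them, and its mean log2 difference was 4.47 (SE 0.54). In bulk tissue, fewer muscle fibres and less RNA per fibre cannot be told apart.

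The other sarcomere genes of the called set followed the same division. Tnnc2, the calcium-binding troponin subunit of fast fibres, ranged from 389 to 2908 in the 7 glands (median 936), and was 11.9 in NewN1, 13.7 in NewN6, 67.1 in X27.1N and 18.4 in X28.1N. Only X27.1N lay above the floor among the 4 glands without muscle, and the groups did not overlap (log2 difference 4.45, SE 0.49). Myl1, an essential light chain of fast myosin, ranged from 568.3 to 3202 (median 1264), and was 46.2 in NewN1, 27.14 in NewN6, 117 in X27.1N and 62.7 in X28.1N. Here too X27.1N was the highest of the 4, well below the lowest of the 7 (log2 difference 4.39, SE 0.46). Myl11, the regulatory light chain of fast myosin, ranged from 264 to 2541 (median 570), and lay under the floor in all 4 glands without muscle at 1 in NewN1, NewN6 and X28.1N and 28.6 in X27.1N. It was at least 17.9-fold higher in the glands with muscle.

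Atp2a1, the fast-fibre calcium pump of the sarcoplasmic reticulum, ranged from 416 in Young to 3540 in NewN2 (median 998). It was 45.7 in NewN1, 70.0 in NewN6, 107 in X27.1N and 61.8 in X28.1N, so that the groups did not overlap (log2 difference 3.99, SE 0.56). Ckm, the muscle creatine kinase, ranged from 409 to 3382 (median 847). It was 44.96 in NewN1, 58.0 in NewN6, 125 in X27.1N and 83.3 in X28.1N, again without overlap (log2 difference 3.82, SE 0.54). Ckm, the second marker of skeletal muscle taken for these glands, thus divided them as Acta1 did.

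**Figure D1:**
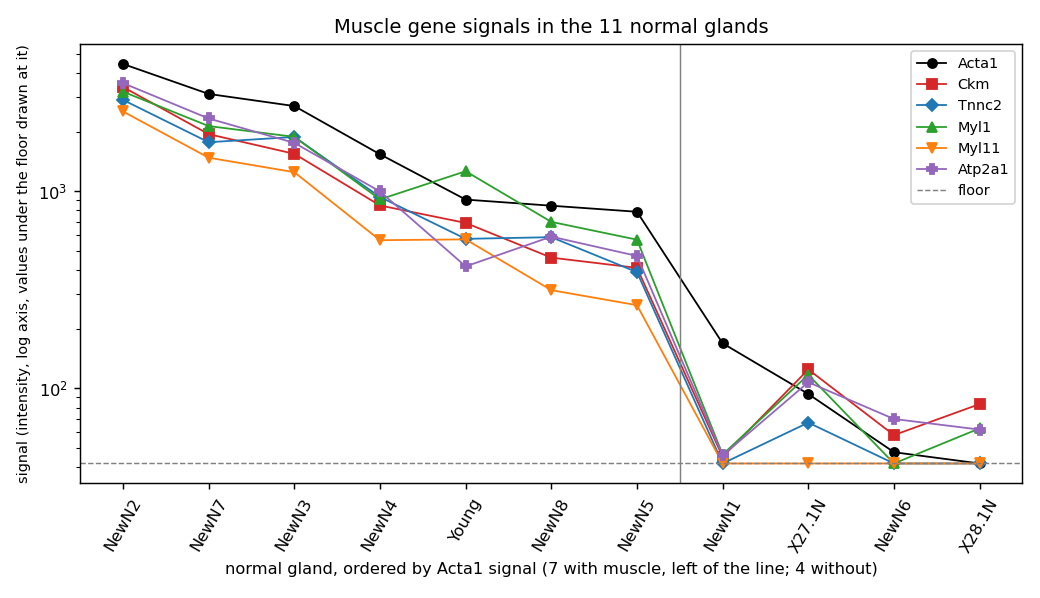
Signal of 6 muscle genes in each of the 11 normal glands, on a log axis, with glands ordered by Acta1; points are single arrays, lines join a gene's points, and the dashed line is the floor of 41.6, at which lower signals are drawn. All 6 genes are highest in NewN2, and every point of the 7 glands left of the vertical line lies above every point of the same gene in the 4 glands to its right.

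The title of a gland is uneven over the groups, since 6 of the 7 glands with muscle and 2 of the 4 without are titled NewN. Among the NewN glands alone the log2 difference was 4.76 for Tnnc2, 4.88 for Myl1, 4.22 for Myl11, 4.48 for Atp2a1, 4.41 for Ckm and 4.36 for Acta1. Between Young and the mean of X27.1N and X28.1N it was 3.44, 3.88, 3.78, 2.35, 2.76 and 3.86 in the same order. The differences were thus found in the same direction in both sets of titles, which for Acta1 the rule had fixed. With the title as a block 2 genes were called, Myl1 and Tnnc2, and in the NewN glands alone 0 were called by limma (897 at an unadjusted p under 0.05).

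Among the 7 glands the amount of muscle RNA was itself uneven. NewN2 was the highest for all 6 called genes, and NewN5 was the lowest for 5 of them, the exception being Atp2a1, lowest in Young. The signal of NewN2 over that of NewN5 was 5.62 for Acta1, 5.63 for Myl1, 7.48 for Tnnc2, 7.53 for Atp2a1, 8.27 for Ckm and 9.61 for Myl11. Larger ratios stood in Tnni2 (11.3) and Actn3 (12.4), and smaller ones in Pvalb (4.30) and Casq1 (3.51). The 3 glands with the most Acta1 (NewN2, NewN7 and NewN3) also held the 3 highest values of 48 of the 120 muscle genes tested, against 377 of all genes tested (3.72%). NewN2 was the highest of the 7 for 67 of the 120, against 12.4% of all genes. Acta1, which ranked the glands, is counted in both. The muscle genes read the tissue that the rule used, so these counts only describe it.

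The fast-fibre list held the widest differences. All 13 of its genes were measured and tested, 4 were called higher, against 0.0593% of all genes, and 9 were higher without overlap between the groups, against 0.504%. The median log2 difference of the 13 was 2.30, against 0.01 over all genes. These genes read the tissue that the rule used, and the counts describe it. Tnni2, the fast troponin subunit that blocks contraction at rest, ranged from 185 to 2079 in the 7 glands (median 473), and was above the floor in 1 of the others, at 65.8 in X27.1N. Its log2 difference of 3.60 (SE 0.57) missed the threshold. Tnnt3, the fast troponin subunit that binds tropomyosin, ranged from 279 to 1848 (median 526), and was 90.3 in NewN1, 101 in NewN6, 172 in X27.1N and 166 in X28.1N. The groups did not overlap, although Tnnt3 kept a signal above the floor in every gland (log2 difference 2.30, SE 0.47).

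Actn3, the alpha-actinin that anchors thin filaments in fast fibres, ranged from 105 to 1294 (median 253) and lay under the floor in all 4 glands without muscle, at most 12.5. It was at least 7.48-fold higher in the glands with muscle. Myh2, a fast oxidative myosin heavy chain, ranged from 69.5 to 528 (median 152), and was 33.8 in NewN1, 51.8 in NewN6, 72.4 in X27.1N and 42.1 in X28.1N. X27.1N lay above NewN5, the lowest of the 7, so that the groups overlapped for Myh2 (log2 difference 1.83, SE 0.48). Casq1, the calcium store of the fast-fibre reticulum, had a difference of 1.46 (SE 0.34), and Pvalb, a calcium buffer of fast fibres, of 1.15 (SE 0.34), both without overlap. Myh4, the myosin heavy chain of the fastest fibres, was above the floor in 3 of the 7 glands and reached 247 in NewN2.

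A pair of fast-fibre genes stood apart from the rest. Myh1, another fast myosin heavy chain, had signals of 1093 to 1600 in the 7 glands and of 1389 in NewN1, 1077 in NewN6, 894 in X27.1N and 1624 in X28.1N. The groups overlapped, and the signal was as high in X28.1N, where Acta1 lay under the floor, as in any gland with muscle (log2 difference 0.22, SE 0.16). Mybpc2, a myosin-binding protein of fast fibres, differed by 0.02 (SE 0.17), and another of its probe sets by 0.89.

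The slow-fibre genes did not divide the glands. Of the 11 on the array, Myh7 (the slow myosin heavy chain) and Tnnt1 (a slow troponin subunit) lay under the floor in all 11 glands. Of the 9 tested, 0 were called and 0 were without overlap. Over all genes 0.0593% were called and 0.504% were higher without overlap, so 0 of 9 is near those shares. The median log2 difference was 0.21, from -0.20 to 0.83. The widest was Mb, the oxygen-storing myoglobin, with 130 to 402 in the 7 glands (median 170) and 97.4 in NewN1, 100.2 in NewN6, 104 in X27.1N and 146 in X28.1N. X28.1N lay above the lowest of the 7, and the difference was 0.83 (SE 0.28). Myl3, a slow and ventricular myosin light chain, differed by 0.41 (SE 0.26) and Tnni1, the slow inhibitory troponin, by 0.27 (SE 0.16). Tpm3, a tropomyosin also found outside muscle, and Myl2, a slow regulatory light chain, lay on the other side of 0 at -0.20 (SE 0.15) and -0.19 (SE 0.18). Another probe set of Myl2 differed by 0.22 and another of Tnni1 by 0.01, so that the sign for Myl2 depended on the probe set. The summed signal of the slow list ran from 3288 to 4174 in the 7 glands and from 3222 to 4066 in the 4, while that of the fast list ran from 4267 to 20787 and from 1616 to 2351. Tpm3 (1374 to 2443 over the 11 glands) and Atp2a2 (765 to 1231), both also made outside muscle, were large parts of the slow sum. The slow sum thus does not read slow fibres alone. The fast-fibre median against the slow-fibre median is a description, and probes of different genes differ in how bright they can become.

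**Figure D2:**
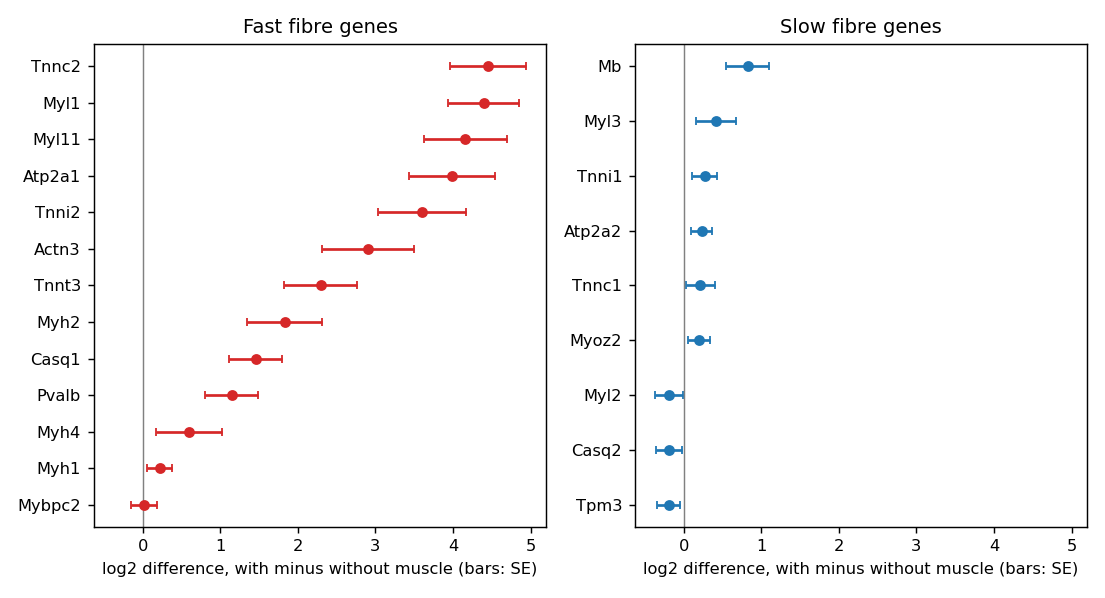
Mean log2 difference, 7 glands with minus 4 without muscle, for the 13 fast-fibre genes (left) and the 9 tested slow-fibre genes (right), with bars of 1 standard error. Fast-fibre differences run from 0.02 (Mybpc2) to 4.45 (Tnnc2), and slow-fibre differences from -0.20 to 0.83 (Mb).

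The remaining parts of the sarcomere were read by several lists that share members with the fast and slow lists. Of 13 thin-filament genes 2 were called (median log2 difference 0.24), of 16 thick-filament genes 2 (median 0.45), and of 24 genes of the Z disc, the plate that anchors thin filaments, 0 (median 0.52, 23 of 24 positive). Over all genes 0.0593% were called, 51.3% were positive and the median was 0.01, and nothing is read from the lists' counts, since they read the tissue that the rule used. Tcap, a titin cap protein of the Z disc, ranged from 104 to 780 in the 7 glands (median 234), and was 40.9 in NewN1, 53.3 in NewN6, 73.4 in X27.1N and 63.9 in X28.1N. The groups did not overlap for Tcap (log2 difference 2.31, SE 0.51). Hspb6, a small heat shock protein of contractile tissues, differed by 1.34 (SE 0.30), Myom2, a protein of the M band, by 1.26 (SE 0.35), and Myoz1, a calcineurin-binding protein of fast Z discs, by 0.88 (SE 0.28), each without overlap. Ttn, the giant titin spring, differed by 1.03 (SE 0.37) and Actn2, the other muscle alpha-actinin, by 1.02 (SE 0.41), both with overlap. Des, the intermediate filament of muscle, differed by 0.64 (SE 0.32), and NewN6 at 293 lay above the median of the 7 glands, 277.

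For Tpm1, an alpha-tropomyosin that winds along thin filaments in muscle and other cells, the probe sets disagreed. The brightest, used for the gene, had 874 to 1491 in the 7 glands and 735 to 1729 in the 4, with the groups overlapping (log2 difference 0.24, SE 0.21). Of the 5 other Tpm1 probe sets, 1 differed by 3.44. Among the 12306 tested probe sets with 1 symbol, it alone was called besides those of the 6 genes. The 4 others of Tpm1 differed by 2.19, 0.98, 0.14 and -0.14. Tpm2, beta-tropomyosin, differed by 0.24 (SE 0.28), and its highest signal of the 11 glands, 1790, was in NewN1, a gland without muscle.

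In the 25 genes of muscle energy metabolism 1 was called, Ckm, 7 did not overlap, and the median log2 difference was 0.33, against 0.0593% called, 0.504% higher without overlap and a median of 0.01 over all genes. Eno3, the muscle enolase of glycolysis, ranged from 70.6 to 541 (median 141) and lay under the floor in all 4 glands without muscle, so that it was at least 4.32-fold higher. Cox6a2, the muscle and heart form of a cytochrome c oxidase subunit, ranged from 77.6 to 492 (median 161), and was 4.64 in NewN1, 47.5 in NewN6, 54.8 in X27.1N and 29.23 in X28.1N. The groups did not overlap for Cox6a2 (log2 difference 1.83, SE 0.45). Pygm, the muscle glycogen phosphorylase, differed by 1.15 (SE 0.38), Adss1, of the purine nucleotide cycle, by 0.79 (SE 0.22) and Pfkm, the muscle phosphofructokinase, by 0.66 (SE 0.22), all without overlap. Other probe sets differed by 1.11 and 2.46 for Pygm and by 1.10 for Pfkm. Ckmt2, the mitochondrial creatine kinase of muscle, was at least 1.95-fold higher. The brightest gene of the list, Car3, a carbonic anhydrase abundant in slow muscle and in fat, had 6432 to 8116 in the 7 glands and 7658 in NewN1, 5035 in NewN6, 4080 in X27.1N and 8025 in X28.1N. The groups overlapped for Car3 (log2 difference 0.32, SE 0.16), and its lowest values lay in the 2 glands with the least summed adipocyte signal, X27.1N and NewN6.

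Of 21 genes of calcium handling and excitation coupling 1 was called, Atp2a1, against 0.0593% of all genes (median log2 difference 0.23). Atp2a2, the pump of slow, cardiac and non-muscle cells, had 841 to 1231 in the 7 glands and 765 to 1180 in the 4 and differed by 0.23 (SE 0.14). Sln, which inhibits the pump, differed by 0.70 (SE 0.32) and Ryr1, the calcium release channel, by 0.37 (SE 0.26), Ryr1 being above the floor in 3 of the 7 glands and in 0 of the 4. Of 17 genes of the fibre membrane, the nerve contact and signalling, 0 were called (median 0.11, from -0.30 to 0.67), and 0 were without overlap. Over all genes 0.504% were higher without overlap. The muscle transcription factors did not divide the glands either. Myod1, which starts the muscle programme, lay under the floor in all 11, Myog, which drives differentiation, differed by -0.04 (SE 0.16), and Mef2c, a factor of muscle and of B cells, by -0.35 (SE 0.23), with its highest signal, 549, in NewN6.

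Over all muscle lists together, 126 of 154 genes were on the array, 120 were tested, and 6 lay under the floor in every gland. Of the 120, 95 differences were positive and 25 negative, with a median log2 difference of 0.29, against 51.3% positive over all genes. There were 21 genes without overlap, all higher, against 51 of all genes (0.504%), and 22 that were at least 2-fold higher, against 37 of all genes (0.366%). At an unadjusted p under 0.05, 34 of the 120 were higher and 0 lower, against 4.7% and 2.74% of all genes.

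**Figure D3:**
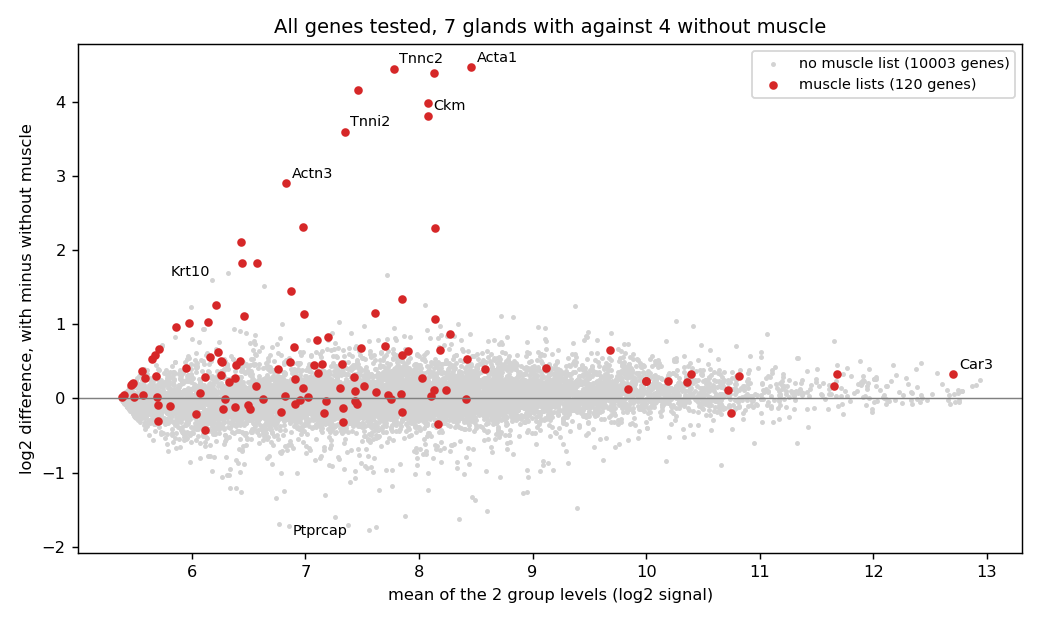
Mean log2 difference, 7 glands with minus 4 without muscle, of each of the 10123 genes tested, against the mean of the group levels in log2 signal; red points are the 120 muscle genes and grey points the 10003 others. The points above 2 on the vertical axis are all muscle genes, and Krt10 and Ptprcap mark the highest and lowest of the others.

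The lists of the other kinds of muscle had medians nearer 0 than the fast-fibre list (2.30), but not nearer than every skeletal muscle list. Over all genes 0.0593% were called, so counts of 0 in short lists are near that share. Of 9 cardiac genes 0 were called and the median log2 difference was -0.16. Myh6, a cardiac myosin heavy chain, had a signal of 1310 to 1839 in the 7 glands and of 1273 to 1987 in the 4. Of 14 smooth muscle and pericyte genes 0 were called (median 0.37, and 0.12 with the title as a block), and Acta2, smooth muscle actin, which myoepithelial cells also make, differed by 0.57 (SE 0.34), with 3377 in NewN1 above every gland with muscle. The brown fat list, which shares Cox7a1, Cox8b, Fabp3 and Pdk4 with the muscle metabolism list, had a median of 0.02 over 11 genes.

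The glands were mammary by their markers in both groups. Epcam, an epithelial adhesion protein, ran from 750 to 2460 in the 7 glands and from 673 to 2141 in the 4. Csn1s1, a casein of milk, ran from 2088 to 8440 and from 1494 to 3432, and Cfd, the adipocyte protease adipsin, from 5824 to 8417 and from 3784 to 8730. The groups overlapped for all 3 genes. In the fit of 7 against 4 glands 0 genes of the luminal, basal, milk protein and adipocyte lists were called, against 0.0593% of all genes. In alternative fits Oxtr (basal list) was called without NewN1, and Plin1 (adipocyte list) with the spread taken from all 35 arrays. The differences leaned one way: 22 of 23 luminal (median log2 difference 0.51), 12 of 12 basal and myoepithelial (0.62), 28 of 28 fibroblast and matrix (0.33), 14 of 14 basement membrane (0.32) and 21 of 22 adipocyte genes (0.31) were positive. Krt5, a basal keratin, differed by 1.04 (SE 0.33; limma adjusted p = 0.659) and Plin1, which coats fat droplets, by 1.24 (SE 0.47; adjusted p = 0.659). These medians moved with the glands and settings used. The luminal median was 0.19 with the title as a block, and the basal median 0.30 with it and 0.21 in the NewN glands alone. Without NewN1 the basal median was 0.95. The fibroblast median was 0.20 without Young and also without NewN6, and that of basement membrane 0.16 without NewN6. The adipocyte median turned to -0.32 without NewN4, NewN6 and X27.1N (20 of 22 negative), and was 0.15 without NewN6, while without X27.1N 11 of 22 adipocyte genes were positive. The part of gland composition in the differences was not tested.

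Among genes in no muscle list, the largest differences upward, all uncalled, belonged to genes of several kinds. Krt10 and Krt1, keratins of the outer skin layers, had 1650 and 1913 in NewN3 and 497 and 320 in NewN4, and at most 116 and 159.5 in the 9 other glands. Their log2 differences of 1.70 (SE 0.87; limma adjusted p = 0.662) and 1.51 (SE 0.78; adjusted p = 0.663) came with high values in NewN3 and NewN4 alone, which ranked neither first nor last for Acta1. Of the 10 keratinocyte and skin genes tested 0 were called and 8 were positive (median 0.64), against 0.0593% and 51.3% of all genes. Their summed signal ran from 1534 to 8272 in the 7 glands, highest in NewN3, and from 1204 to 1947 in the 4. Without NewN3 the median was 0.33. The part of skin in the difference was not tested.

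Apobec2 and Eef1a2, also among these, had their high values in the glands with the most Acta1. Apobec2, an APOBEC family protein known from skeletal and heart muscle, had 386 in NewN2, 194 in NewN7 and 181 in NewN3, was at least 63.8 in the 7 glands, and lay under the floor in all 4 glands without muscle, at most 40.8. It was at least 3.03-fold higher in the glands with muscle (limma adjusted p = 0.659). Eef1a2, the translation elongation factor of muscle and nerve, had 343 in NewN2, 183 in NewN3 and 182 in NewN7, at least 60.2 in the 7 glands, and 52.3 in NewN1, 45.7 in NewN6, 47.3 in X27.1N and 49.96 in X28.1N. The groups did not overlap for Eef1a2 either (log2 difference 1.25, SE 0.44; limma adjusted p = 0.659). For both genes the 3 highest glands were the 3 with the most Acta1, and neither stood in a muscle list here. With log2 Acta1 in place of the division, 16 genes were called, all higher, and Apobec2 was the 1 of them in no muscle list. Acta1 is counted among the 16 as its own predictor. This fit used the values that chose the groups, so nothing is read from its calls.

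The 12 largest differences downward named by the rule, none of them called, ran from -1.77 to -1.34 and included genes of the T and NK cell and B cell lists (Ptprcap, Cd79b, Cd3g, Cd3d, Tcf7, Cxcl13 and Cd5) and genes outside them, such as Glycam1 and Mx1. Ptprcap, a partner of the CD45 phosphatase in lymphocytes, had 1088 in NewN4 and 54.2 to 89.5 in the other 6 glands with muscle, and was 71.8 in NewN1, 1926 in NewN6, 1260 in X27.1N and 84.0 in X28.1N. The groups overlapped, with 1 high gland among the 7 and 2 among the 4 (log2 difference -1.77, SE 1.03; limma adjusted p = 0.673). Cd3g, part of the T cell receptor complex, followed the same glands, NewN6 reaching 1639, X27.1N 1077 and NewN4 894, against at most 75.8 elsewhere (difference -1.70, SE 1.01; limma adjusted p = 0.676). Glycam1, a mucin-like protein of milk and of lymph node vessels, was high in the same glands, at 4261 in NewN4, 3764 in X27.1N and 3649 in NewN6, while NewN1 had 37.2 and X28.1N 190.4 (difference -1.62, SE 1.35; limma adjusted p = 0.738). Cxcl13, which attracts B cells, was 950 in NewN1, 1494 in NewN6, 1748 in X27.1N and 635 in X28.1N, and ran from 160 to 1101 in the 7 glands (difference -1.47, SE 0.44; limma adjusted p = 0.659).

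All 20 tested T and NK cell genes (median log2 difference -0.88) and all 5 B and plasma cell genes (median -1.18) were negative, and 0 of the 25 were called. Over all genes 51.3% were positive and 0.0593% were called. The summed signal of the T and NK cell list was highest in NewN6 (16350), then X27.1N (9771) and NewN4 (8854), and from 2394 to 3112 in the 8 other glands. Without NewN6 alone the medians were -0.42 and -0.52, and without those 3 glands -0.11 and -0.04, while that of the fast-fibre list was 2.39, against 2.30 with them. High lymphocyte signal thus occurred in glands with and without muscle.

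**Figure D4:**
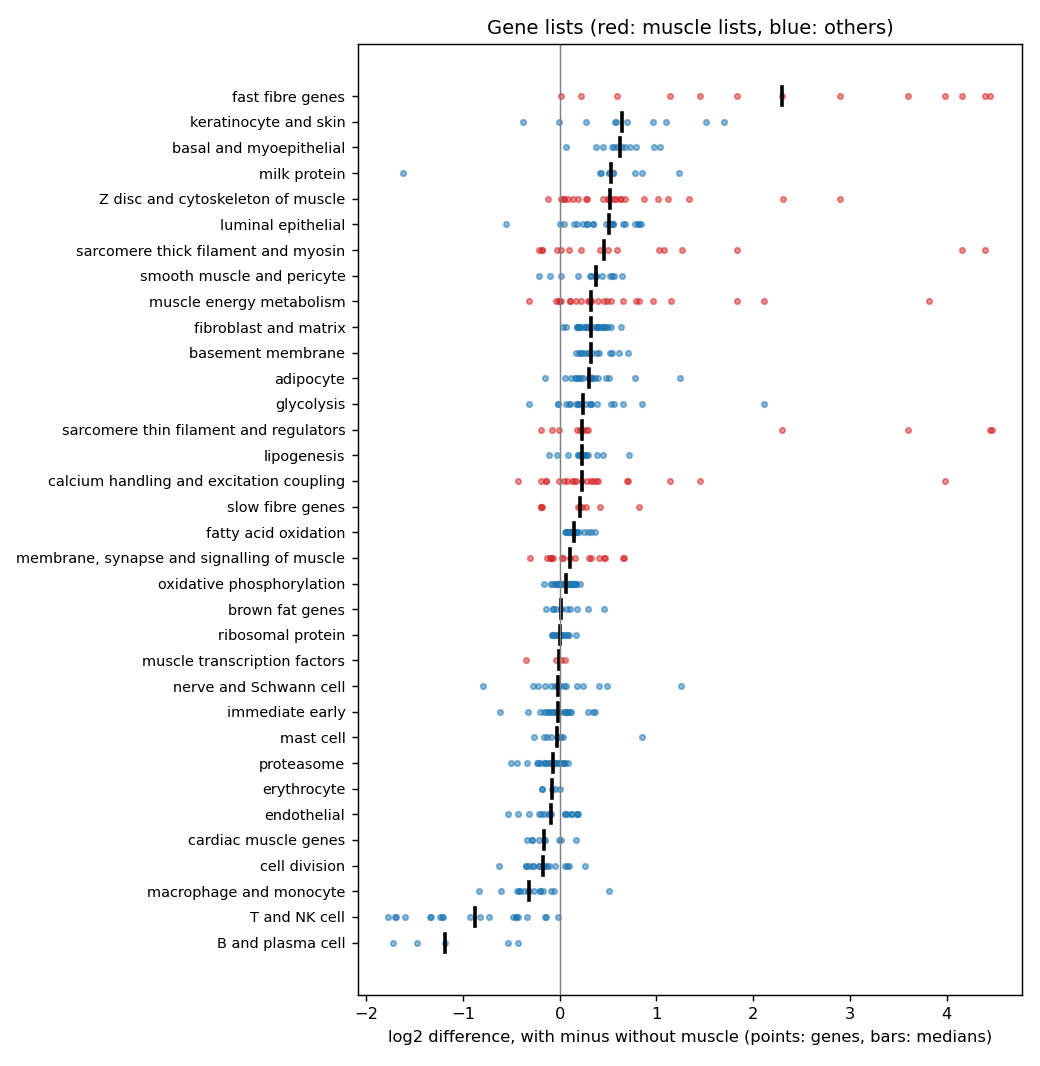
Log2 difference, 7 glands with minus 4 without muscle, of each gene (points) of each list, with a black bar at the list's median; muscle lists are red and the others blue. The fast-fibre list has the highest median (2.30) and the T and NK cell (-0.88) and B and plasma cell (-1.18) lists the lowest.

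For general metabolism, the oxidative phosphorylation list had a median log2 difference of 0.06 over 31 genes, from -0.16 to 0.21, and the fatty acid oxidation list 0.15 over 19 genes, all positive. The fatty acid oxidation median was 0.02 without NewN6 and 0.06 without X27.1N, and turned to -0.13 without NewN4, NewN6 and X27.1N (16 of 19 negative), where that of oxidative phosphorylation was -0.06. The glycolysis list had 0.24 over 20 genes (0.12 with the title as a block), its widest member being Eno3. Ribosomal protein genes had a median of 0.01 over 16 genes. No gene of these lists was called.

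No array or RNA measure passed its test between the groups. The 90th percentile of signal was 728 ± 23.6 (SD, n = 7) with and 700.1 ± 56.4 (SD, n = 4) without muscle (two-sided exact permutation p = 0.252). For Gapdh control probes the 3′ over 5′ signal, a measure of RNA degradation, was 1.13 ± 0.0964 and 1.13 ± 0.186 (exact permutation p = 0.924), and that of Actb 1.37 ± 0.0928 and 1.31 ± 0.139 (exact permutation p = 0.348). The 5 measures had Benjamini-Hochberg adjusted values from 0.871 to 0.924, and 0.00303 is the smallest p that 330 divisions of 7 and 4 allow. The median signal of a gland ran from 163 to 172, and precision is limited by the small number of arrays.

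The same genes were read in the 24 tumours, which the rule did not use. Acta1 lay above the floor in 3 tumours, at 310 in X17, 118 in X25L and 66.8 in X15, and 0 tumours reached the lowest gland with muscle, NewN5. Tnnc2 and Myl1 were above the floor in X25L alone, at 63.9 and 101, and Myl11 and Tnni2 in 0 of 24. Ckm ran from 61.8 in X17, the tumour with the most Acta1, to 148 in X25L (median 87.9). Atp2a1 ran from 48.3 to 191 (median 114) and was 149 in X17. Both genes kept a signal above the floor in all 24. For both genes a signal above the floor was thus present in tumours in which Acta1 lay under it. The 9 muscle genes compared in this way were the 6 called genes, Tnni2, Tnnt3 and Actn3. In 0 of them did any tumour reach the lowest of the 7 glands. For Atp2a1, 15 of 24 tumours lay above the highest gland without muscle, for Tnnt3 2, and for Acta1 and Ckm 1 each. Some other muscle genes without overlap between the gland groups did reach the 7 glands. Tumours had up to 300 for Adss1, 175 for Casq1 and 61.3 for Ckmt2, against lowest values of 130, 113 and 50.4 in the 7.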

How the data were processed

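The table deposited by the authors gives linear intensity values of 15923 probe sets on 35 arrays. How these were background-corrected and scaled is not given in the sources used. The 57 control probe sets were left out. Deposited intensities were raised to at least the 10th percentile of all values (41.6) before log2. Each of 10411 genes was read by its brightest probe set on average (platform symbols checked against RefSeq GRCr8), and genes under the floor in all 11 glands were not tested, which left 10123.

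The comparison was fitted in R 4.3.3 with lmFit and eBayes (trend, robust) of limma 3.58.1 over 15118 probe sets, with a gene called at a Benjamini-Hochberg adjusted p-value under 0.05. The procedure was tested on simulated data. Array measures were compared by exact permutation. Figures were drawn with matplotlib 3.10.9.

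The members, the gene lists and the test were chosen with earlier results of these data known. Genes named were Acta1 and Ckm, the called genes, the largest differences up to 12 in each direction, overall and among genes in no muscle list, that ran the same way in the NewN glands and in the others, from each list the 2 members of widest difference and the 2 of highest level, and muscle genes over 4 times the floor. Other genes named were chosen after their values were seen. Alternatives covered scaling, floor, dim probe sets, spread, title, division, glands used, fat content and probe sets.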

Additional observations from a re-analysis of the deposited data

Results flagged for a closer look

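For the genes with printed values and the array measures, 146 groups of 4 or 7 glands were searched for a single gland far from the rest of its group, at a 95% limit that chance passes in about 1 in 20 groups, and 23 groups held one. Values are signals, and the search was made on log2 values with the floor applied. Where all other glands of a group lay at the floor, any single value above it was flagged. This was so for Tnnc2 and Tnni2 in X27.1N, Krt10 in NewN1 and Cd3d in NewN4, to which the rate of 1 in 20 does not apply.

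Among the glands without muscle, X27.1N stood above the 3 others for Tnnc2 (67.1), Tnni2 (65.8) and Actn2 (51.5), all genes of the sarcomere, with the 3 others at or near the floor. X28.1N stood high for Mb (146), and NewN1 for Krt10 (54.0). Among the glands with muscle, NewN2 stood high for Myh4 (247) and Ryr1 (121), both above the floor in 3 of the 7. Young stood low for Epcam (750), Krt5 (677), Acta2 (1180), Plin1 (371) and Atp2a2 (841), and high for Myh6 (1839). NewN4 stood high for the lymphocyte genes Ptprcap (1088), Cd3g (894), Cd3d (590.3), Cd5 (236), Cd79b (809) and Tcf7 (695), also high for Glycam1 (4261) and Mx1 (473), and low for Cfd (5824) and Car3 (6432).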

How the results depend on the processing

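The count of 6 called genes stayed within 1.5 times under quantile normalization (7), median centring (4), another floor (7 and 5), no floor (8), no trend (6), an adipocyte covariate (5) and every probe set with 1 symbol tested (7). Without the glands nearest the threshold it was 6, 5 higher and 1 lower, 2 of them in no muscle list (Lypd2 and Tppp3). With the adipocyte covariate 1 called gene stood in no muscle list (Cbr1). The count was 26 with the spread taken from all 35 arrays (25 higher, 1 lower, 7 in no muscle list). It was 16 with continuous Acta1, Acta1 itself among them (1 in no muscle list), and 2 with the title as a block. By limma 0 were called in the NewN glands alone, and 0 without NewN4, NewN6 and X27.1N (457 at an unadjusted p under 0.05). In the brightest probe sets 0 were called (481 at an unadjusted p under 0.05), where 1 of the 6 genes was tested. Leaving out each gland in turn gave from 0 (without X28.1N, with 1029 at an unadjusted p under 0.05) to 22 called (without NewN1), 0 to 19 higher, 0 to 3 lower and 0 to 16 in no muscle list. Without Young, 9 were called, 3 of them in no muscle list. The causes of these changes were not tested. For Acta1, which chose the groups, a positive sign was fixed in advance. The other called genes were positive in every alternative that tested them, and so was the fast-fibre median. Medians of lists nearer 0 did change sign. The slow-fibre median was 0.06 with the higher floor and -0.19 in the brightest probe sets, and without NewN4, NewN6 and X27.1N the cell division median turned from -0.17 to 0.21, and those of adipocyte and fatty acid oxidation genes turned negative. No paired analysis was possible because the labels give the groups no shared replicate numbers. Differences of dim genes with glands at the floor depend on the floor.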
